A study of Mus musculus with 8 samples.

Results

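The Slc25 family encodes the mitochondrial carriers, and it was taken here as every gene whose platform symbol is Slc25a followed by a number. The rule found 44 such genes among the 17711 genes named by a probe. Illumina bead arrays measured them in mouse distal colon epithelium cut out by laser, in 4 surface samples and 4 crypt base samples. The animals of both groups were male wild-type C57BL/6 mice of 10 to 12 weeks, with no transgene or treatment, and each of 4 mice gave a sample of either kind. The labels number the samples 1 to 4 in each group, and samples of the same number are treated as a pair. The labels do not state that the number marks the mouse. With the pairs in the fit, the p-values set a change against the spread of the differences within these 4 pairs. Without the pairs, they set it against the spread between samples of a group. In both fits each gene's spread was drawn toward a value common to all genes tested.

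Most members of the family sit in the inner mitochondrial membrane, where each moves a metabolite, a nucleotide, an ion or a cofactor between the cytosol and the matrix. The phosphate carrier and the adenine nucleotide carriers supply ATP synthase with its substrates and send ATP out, and other members link the matrix to the cytosol in amino acid, lipid and heme synthesis. In the colon, dividing cells lie near the crypt base and absorptive colonocytes line the surface.

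Values are log2 signals as deposited, in which background lay at 5.52, and a fold change near that level understates the difference. Each gene was read from its brightest probe, by the mean of the 8 arrays, and a probe's level was not set against that of another probe. A gene was tested where its probe had a detection p under 0.05 on at least 4 of the 8 arrays. Of the 44 genes 27 passed this filter. Changes are log2 signal at the surface minus log2 signal at the crypt base, from limma with the replicate number as a block and Benjamini-Hochberg adjustment over all 9494 genes tested.

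The captured samples were checked against marker genes, some of which were too dim to serve. The surface colonocyte genes Aqp8, Car4, Slc26a3 and Guca2a all rose at the surface, while Krt20 of the same list was at or under background on most arrays. Of the crypt progenitor genes Cdca7 and Top2a fell, and Lgr5 and Ascl2 were at or under background on most arrays. Markers shared by the whole epithelium differed as well. Their summed linear signal, over 6 genes, ranged from 11056 to 13752 in surface samples and from 6842 to 9646 in crypt base samples, and 3 of the 6 rose. For 5 goblet cell markers the sum ranged from 26641 to 39885 at the surface and from 13667 to 33574 at the crypt base, and 2 of 5 rose. Markers of cells other than epithelium were detected too. The summed linear signal of 6 smooth muscle markers ranged from 2335 to 9914 in surface samples and from 5261 to 17551 in crypt base samples, and 0 of the 5 tested passed the test. The sum of 7 leukocyte markers ranged from 1764 to 5459 at the surface and from 1856 to 4671 at the crypt base, with Ptprc and Cd52 at or under background on most arrays. For 6 fibroblast markers the range was 1824 to 2456 at the surface and 1578 to 3121 at the crypt base, and for 4 endothelial markers it was 661 to 834 and 565 to 780. Of the fibroblast markers 1 of 6 passed, Col3a1 (higher). The part of all these cell markers in the results was not tested, and fewer cells of a type cannot be told apart from less RNA per cell. The sample surface 4 stood apart, with 159 gene-naming probes whose log2 signal was over 2 away from the median of the remaining arrays, against 6 to 27 for each of the remaining arrays. Among those 159 probes 0 were of the Slc25 family. At a distance of over 0.5, surface 4 had 7 of the 27 tested members, crypt base 1 had 6, surface 3 had 4 and the remaining arrays had 0 or 1 each.

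The phosphate carrier, 1 adenine nucleotide translocase and both tested ATP-Mg carriers were among the members that rose at the surface, and an iron carrier and the ornithine carrier fell. The other detected probe of the ornithine carrier did not fall, with a change of 0.05. In all, 6 members rose (Slc25a3, Slc25a24, Slc25a5, Slc25a25, Slc25a22 and Slc25a44) and 2 fell (Slc25a28 and Slc25a15). The changes ran from a 2.00-fold rise of Slc25a3 to a 1.56-fold fall of Slc25a28. The 8 calls are 29.6% of the 27 members tested, and 22.2% of all genes tested were called. By direction the shares over all genes were 12.1% higher and 10.1% lower. The median change of the 27 members was 0.01, against -0.01 over all genes tested, with members on both sides of it. Without the replicate block 3 of the 27 passed (Slc25a3, Slc25a24 and Slc25a25), where 13.3% of all genes did and 7.25% did with a rise. Without replicate 1 no gene of the array passed in limma, at a lowest adjusted p of 0.05, although 2512 genes had an unadjusted p under 0.05.

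**Figure D1:**
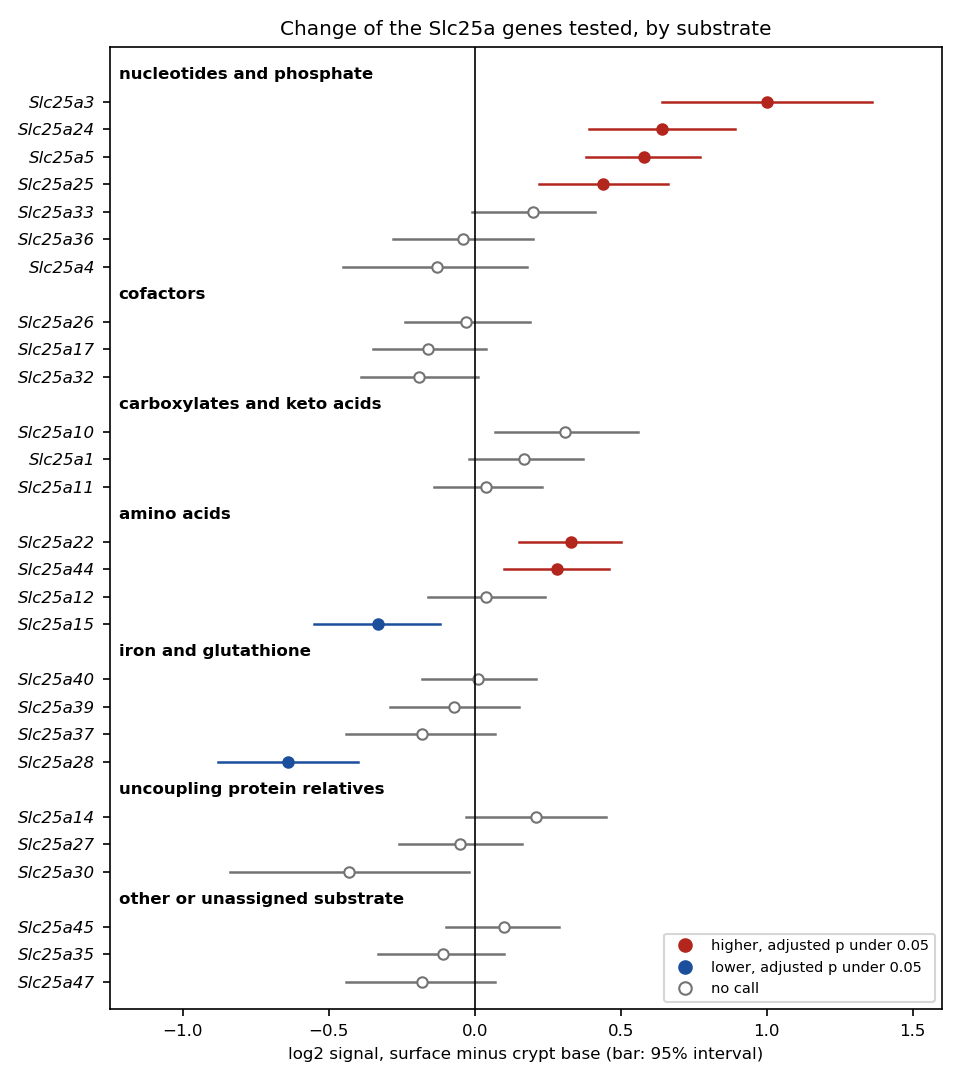
Change of each of the 27 tested Slc25a genes, in log2 signal at the surface minus log2 signal at the crypt base, with genes grouped by what they carry. Points are the estimates of the blocked fit and bars their 95% intervals. The 4 filled points at the top, Slc25a3, Slc25a24, Slc25a5 and Slc25a25, lie between 0.44 and 1.00, and the lowest point is Slc25a28 at -0.64.

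Among the carriers of nucleotides and phosphate, 4 of the 7 tested rose and 0 fell, with a median change of 0.44. Slc25a3 (gene ID 18674) encodes the phosphate carrier, which brings phosphate into the matrix for ATP synthesis and also carries copper. Its log2 signal was 8.78, 9.22, 9.07 and 9.85 in surface samples 1 to 4, against 8.06, 8.36, 8.20 and 8.30 in crypt base samples 1 to 4. Every surface sample lay above every crypt base sample, and surface 4 was the highest. The change was 1.00 ± 0.15 (SE, n = 4 pairs), which is 2.00-fold (limma, adjusted p = 0.0109). It was 0.81 without replicate 4 (adjusted p = 0.0275). A further Slc25a3 probe was not detected on any array.

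Slc25a5 (gene ID 11740) encodes an adenine nucleotide translocase, which exchanges matrix ATP for cytosolic ADP and is the isoform best known from growing human cells. The signals (log2) were 12.31, 12.63, 12.82 and 13.06 in surface samples 1 to 4, against 11.85, 12.12, 12.09 and 12.47 in crypt base samples 1 to 4. The groups overlapped, since surface 1 lay under crypt base 4, but the surface sample was the higher of each pair, by 0.47 to 0.73. The change was 0.58 ± 0.08, which is 1.49-fold (limma, adjusted p = 0.00960), and the call was lost without the block (adjusted p = 0.0723). Transcripts of near-identical copies may share this probe.

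Slc25a4 (gene ID 11739), the translocase isoform of heart and skeletal muscle, did not pass. The signals (log2) were 5.62, 6.07, 6.23 and 5.69 in surface samples 1 to 4, against 6.05, 6.23, 5.93 and 5.92 in crypt base samples 1 to 4. The groups overlapped and the pairs disagreed in direction, with 3 of 4 lower at the surface. The change was -0.13 with a 95% interval from -0.45 to 0.18 (adjusted p = 0.522), and with 1 replicate left out it ran from -0.28 to -0.03. The change of Slc25a5 exceeded that of Slc25a4 in 4 of 4 pairs, by 0.71 ± 0.21 (SD, n = 4). An exact two-sided sign-flip permutation test of this difference gave p = 0.125 (0.188 after Benjamini-Hochberg adjustment over 3 such comparisons), and 0.125 is the smallest p that 4 pairs allow. The 3 comparisons of related members were chosen after their values were seen. Slc25a31, the isoform known from testis, was not detected on any array.

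**Figure D2:**
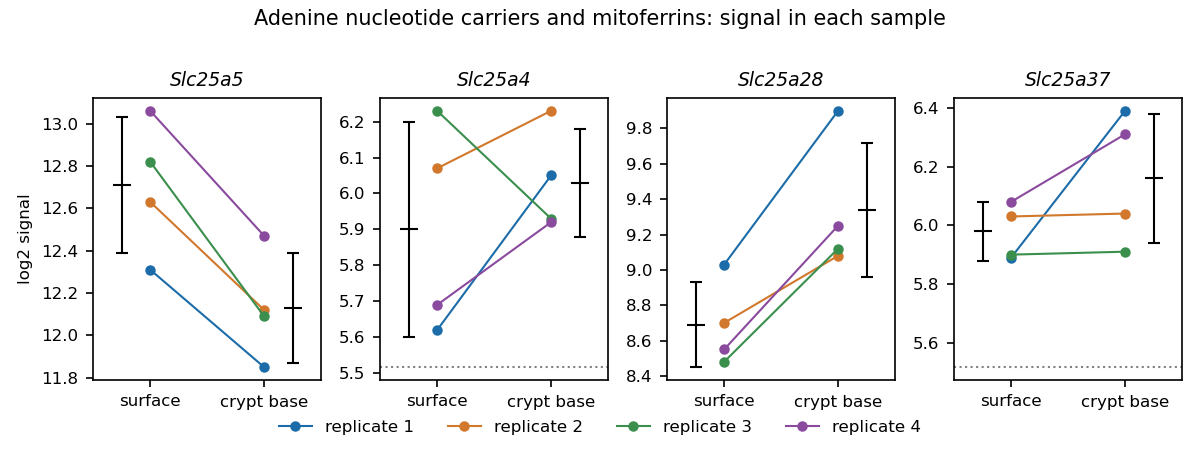
Log2 signal of the adenine nucleotide carriers Slc25a5 and Slc25a4 and of the mitoferrins Slc25a28 and Slc25a37 in each surface and crypt base sample, with same-numbered samples joined. Black marks give the group mean and SD (n = 4), and the dotted line is background, drawn where values come near it. All 4 lines slope the same way for Slc25a5 and for Slc25a28, and they cross for Slc25a4.

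Slc25a24 and Slc25a25 encode calcium-binding carriers that exchange ATP-Mg for phosphate and so set the nucleotide content of the matrix. Slc25a24 (gene ID 229731) had log2 signals of 8.37, 8.44, 8.68 and 8.84 in surface samples 1 to 4, against 7.75, 8.10, 7.89 and 8.03 in crypt base samples 1 to 4. The groups did not overlap. The change was 0.64 ± 0.10, which is 1.56-fold (limma, adjusted p = 0.0129). A further Slc25a24 probe was not detected on any array.

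Slc25a25 (gene ID 227731) had log2 signals of 6.45, 6.48, 6.36 and 6.37 in surface samples 1 to 4, against 5.79, 6.10, 5.92 and 6.11 in crypt base samples 1 to 4. These groups did not overlap either, and all 8 signals were above background. The change was 0.44 ± 0.09, which is 1.36-fold (limma, adjusted p = 0.0227). The probe met the detection filter with no array to spare, at 4 of 8, and the call was lost without replicate 3 or replicate 4. The detection p-values name no sample and served only as a count of arrays. Whether the probe met the filter only through the surface arrays was not determined. The changes of Slc25a24 and Slc25a25 differed by 0.20 ± 0.30 (SD, n = 4 pairs), with pairs from -0.05 to 0.54 (exact sign-flip permutation test, p = 0.5). Slc25a25 lay nearer to background, where a difference is understated. The other 2 members of this kind, Slc25a23 and Slc25a41, were not detected on any array.

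The pyrimidine nucleotide carriers gave no call. Slc25a33 had a change of 0.20 (95% interval -0.01 to 0.41), with the surface sample higher in 4 of 4 pairs, and of 0.10 without surface 4 and the block. Slc25a36 had -0.04 (-0.28 to 0.20).

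**Figure D3:**
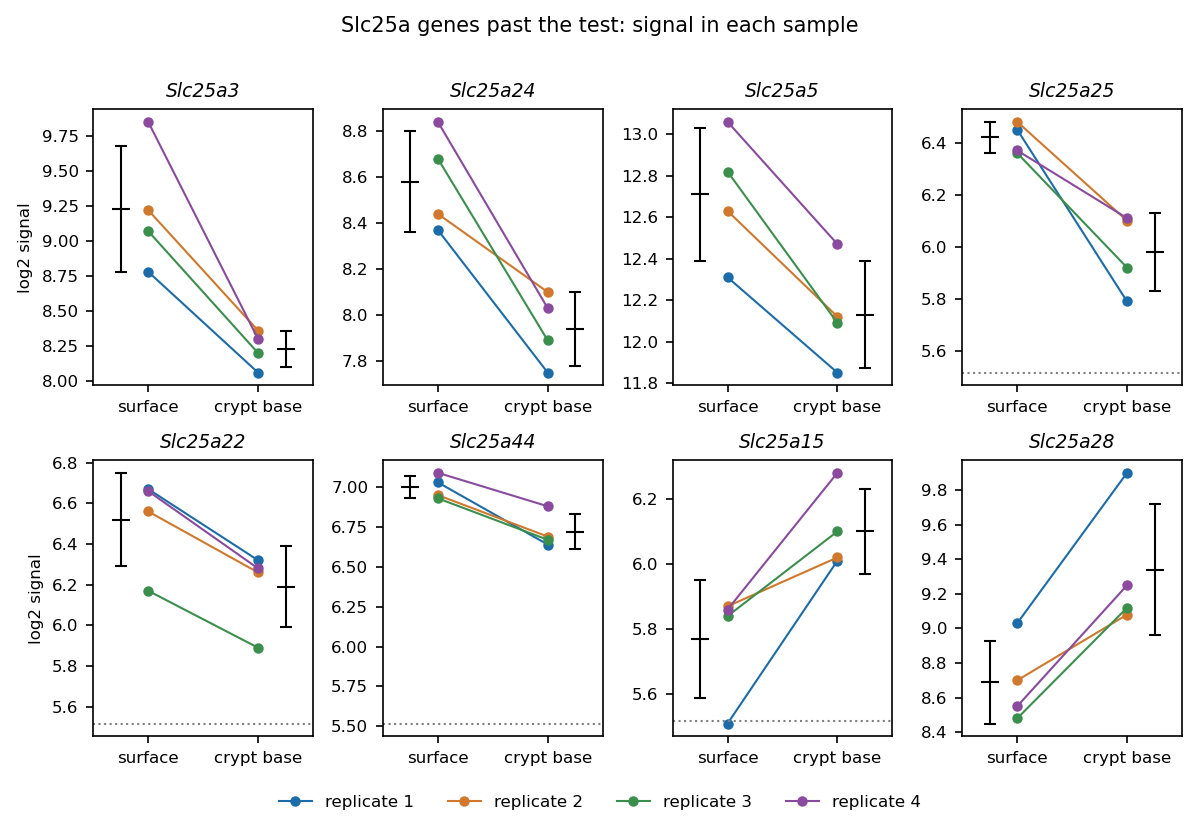
Log2 signal of the 8 Slc25a genes past the test in each surface and crypt base sample, ordered from the largest rise to the largest fall, with same-numbered samples joined. Black marks give the group mean and SD (n = 4), and the dotted line is background. All 4 lines of each panel slope the same way, and the groups overlap for Slc25a5 and Slc25a22 only.

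The stretches around the transcription starts of the 4 risen carriers of nucleotides and phosphate are shown. These genes were chosen because they passed the test, and shared regulation was not tested. The factors named in the series title, Klf4, Hnf4-alpha and Tcf7l2, bind DNA at short motifs. The sequences are RefSeq's for GRCm38.p6 and run from 250 bases before to 50 bases after the start, each 5′ to 3′ on the gene's strand. The most upstream start was taken where several are listed, as for Slc25a25 with 3. Slc25a3 lies at chr10:91123918-91124217 on the minus strand, Slc25a5 at chrX:36795347-36795646 on the plus strand, Slc25a24 at chr3:109122899-109123198 on the plus strand and Slc25a25 at chr2:32451421-32451720 on the minus strand. Capitals mark every match to the motifs searched.
Slc25a3: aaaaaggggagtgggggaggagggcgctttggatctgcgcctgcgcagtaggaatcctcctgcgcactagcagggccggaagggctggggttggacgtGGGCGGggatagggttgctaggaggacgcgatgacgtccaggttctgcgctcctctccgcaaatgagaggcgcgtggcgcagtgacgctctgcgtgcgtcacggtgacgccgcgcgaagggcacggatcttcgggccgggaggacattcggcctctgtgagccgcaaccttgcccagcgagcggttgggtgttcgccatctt
Slc25a5: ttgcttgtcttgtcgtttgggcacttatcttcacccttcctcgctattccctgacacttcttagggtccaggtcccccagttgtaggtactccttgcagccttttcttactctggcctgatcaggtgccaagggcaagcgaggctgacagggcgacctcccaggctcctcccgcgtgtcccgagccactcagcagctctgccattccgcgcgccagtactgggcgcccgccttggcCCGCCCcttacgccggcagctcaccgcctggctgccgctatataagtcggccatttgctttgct
Slc25a24: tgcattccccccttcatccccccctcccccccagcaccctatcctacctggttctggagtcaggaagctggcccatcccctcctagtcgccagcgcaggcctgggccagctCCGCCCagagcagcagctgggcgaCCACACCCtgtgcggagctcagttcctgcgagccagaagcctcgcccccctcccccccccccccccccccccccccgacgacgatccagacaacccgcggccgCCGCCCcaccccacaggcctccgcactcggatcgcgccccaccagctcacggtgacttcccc
Slc25a25: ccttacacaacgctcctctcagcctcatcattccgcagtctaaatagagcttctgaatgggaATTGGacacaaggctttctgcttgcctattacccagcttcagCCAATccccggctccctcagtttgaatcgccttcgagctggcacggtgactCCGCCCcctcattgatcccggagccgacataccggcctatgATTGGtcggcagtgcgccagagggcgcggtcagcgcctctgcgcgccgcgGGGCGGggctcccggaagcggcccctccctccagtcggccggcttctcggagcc

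The motifs searched, on both strands, were the GC box GGGCGG, the CCAAT box CCAAT, the TATA box TATAAA, the E-box CACGTG, the TCF/LEF site CTTTGAT, the HNF4 site CAAAGTCCA, the ERR site TCAAGGTCA and the KLF4 site GGGTGTGG. The capitals in Slc25a3 and Slc25a5 are 1 GC box each. Slc25a24 holds 2 GC boxes and 1 KLF4 match, and Slc25a25 holds 2 GC boxes and 3 CCAAT boxes. The G and C content of these windows was 61.0% to 72.3%, against a median of 52.7% over the table. Of the 44 members 34 had an entry in the table, and 29 of these 34 (85.3%) held a GC box, as did 35.7% of all 32851 windows. A CCAAT box stood in 17 of the 34 (50%) and in 37.4% of all windows. A TATA box stood in 1 of the 34 (2.94%) and in 13.6% of all windows, and an E-box in 6 (17.6%) and in 7.15%. A KLF4 match stood in 3 of the 34 (8.82%) and in 3.56% of all windows. HNF4 and ERR matches stood in 0 of the 34 each, and in 0.475% and 0.423% of all windows. The table counts every listed start of every gene, and members were counted once. It covers 27025 genes, more than the 17711 named on the array, so the shares are not over genes of like kind. A difference between the family and like genes was not tested. A match is a string of letters and not a bound site.

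Amino acid carriers moved in both directions, with 2 of the 4 tested higher and 1 lower. Slc25a22 (gene ID 68267) encodes a carrier that brings glutamate into the matrix with a proton. The signals (log2) were 6.67, 6.56, 6.17 and 6.66 in surface samples 1 to 4, against 6.32, 6.26, 5.89 and 6.28 in crypt base samples 1 to 4. The groups overlapped because surface 3 lay under crypt base 1, 2 and 4. Crypt base 3 was low as well, and the pairs differed by 0.29 to 0.38. The change was 0.33 ± 0.07, which is 1.26-fold (limma, adjusted p = 0.0251), and the call was lost without the block (adjusted p = 0.178) and without replicate 3 or 4.

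Slc25a44 (gene ID 229517), a carrier of branched-chain amino acids known from mouse brown fat, had log2 signals of 7.03, 6.95, 6.93 and 7.09 in surface samples 1 to 4. In crypt base samples 1 to 4 it had 6.64, 6.69, 6.67 and 6.88. The groups did not overlap, though surface 3 and crypt base 4 were close. The change was 0.28 ± 0.07, which is 1.21-fold (limma, adjusted p = 0.0459). The call was lost without the block (adjusted p = 0.0612) and without any 1 of the replicates, and also with no detection filter (0.0569) or a trended and robust prior (0.0783).

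Slc25a15 (gene ID 18408), which exchanges ornithine for citrulline in the urea cycle, fell. Its log2 signal was 5.51, 5.87, 5.84 and 5.86 in surface samples 1 to 4, against 6.01, 6.02, 6.10 and 6.28 in crypt base samples 1 to 4. The groups did not overlap, and surface 1, the lowest, lay at background. The change was -0.33 ± 0.09, a 1.26-fold lower level (limma, adjusted p = 0.0454), and the call was lost without the block (adjusted p = 0.0843), with no detection filter (0.0554) and without replicate 3 or 4. Another Slc25a15 probe, detected on all 8 arrays, had a change of 0.05 ± 0.07, and with both probes averaged the change was -0.14 (adjusted p = 0.189).

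The aspartate and glutamate carrier Slc25a12, a part of the malate-aspartate shuttle, had a change of 0.04 (95% interval -0.16 to 0.24). Its liver counterpart Slc25a13 was not detected on any array, nor were Slc25a2 and Slc25a18. Slc25a29, a carrier of basic amino acids, and Slc25a38, which brings in glycine for heme synthesis, were detected on 2 arrays each and fell under the filter.

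Of the 4 iron and glutathione carriers, 1 fell and 3 did not pass. Slc25a28 (gene ID 246696) encodes mitoferrin 2, which brings iron into the matrix in cells outside the erythroid line. The signals (log2) were 9.03, 8.70, 8.48 and 8.55 in surface samples 1 to 4, against 9.90, 9.08, 9.12 and 9.25 in crypt base samples 1 to 4. The groups did not overlap, although surface 1 came within 0.05 of crypt base 2, and both samples numbered 1 were the highest of their group. The change was -0.64 ± 0.10, a 1.56-fold lower level (limma, adjusted p = 0.0115), and the call was lost without the block (adjusted p = 0.0697).

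Slc25a37 (gene ID 67712) encodes mitoferrin 1, the iron carrier of red cell precursors. Its log2 signal was 5.89, 6.03, 5.90 and 6.08 in surface samples 1 to 4, against 6.39, 6.04, 5.91 and 6.31 in crypt base samples 1 to 4. The groups overlapped, and pairs 2 and 3 differed by 0.01 each. Its change was -0.18 with a 95% interval from -0.44 to 0.07 (adjusted p = 0.268), and it was -0.08 without replicate 1. The change of Slc25a28 lay under that of Slc25a37 in 4 of 4 pairs, by 0.46 ± 0.12 (SD, n = 4; exact sign-flip permutation test, p = 0.125, the smallest possible). Slc25a37 lay near background, where a difference is understated, and Slc25a28 well above it. The part of this in the gap was not tested. The hemoglobin gene Hba-a1, an erythroid marker, had a change of 0.11, and Alas2 and Hbb-b2 were at or under background on most arrays.

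Slc25a39 and Slc25a40, which bring glutathione into mitochondria, had changes of -0.07 (95% interval -0.29 to 0.15) and 0.01 (-0.18 to 0.21). Slc25a39 had mean log2 signals of 9.98 ± 0.28 at the surface and 10.05 ± 0.27 at the crypt base (SD, n = 4 each), well above background.

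The window of the fallen iron carrier Slc25a28 is shown beside those of the risen carriers because it is the member with the largest fall. It lies at chr19:43674832-43675131 on the minus strand, from RefSeq's table for GRCm38.p6, with capitals for the same motifs.
Slc25a28: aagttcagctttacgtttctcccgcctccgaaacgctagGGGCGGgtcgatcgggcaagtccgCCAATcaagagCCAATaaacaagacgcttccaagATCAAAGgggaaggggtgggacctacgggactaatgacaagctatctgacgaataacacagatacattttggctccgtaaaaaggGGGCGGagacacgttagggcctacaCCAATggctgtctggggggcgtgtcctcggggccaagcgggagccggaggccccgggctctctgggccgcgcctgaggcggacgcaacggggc
It holds 2 GC boxes, 3 CCAAT boxes and 1 TCF/LEF match. A TCF/LEF match stood in 2 of the 34 members with an entry (5.88%) and in 3.73% of all windows.

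None of the carriers of carboxylates and keto acids passed, with 3 tested. Slc25a10, the dicarboxylate carrier that exchanges malate or succinate for phosphate, came closest. Its log2 signal was 7.69, 7.32, 7.46 and 7.35 in surface samples 1 to 4, against 7.18, 6.92, 7.15 and 7.33 in crypt base samples 1 to 4. The surface sample was higher in 4 of 4 pairs, by 0.02 in pair 4 and by 0.32 to 0.51 in the others, and the groups overlapped. The change was 0.31 ± 0.10 (limma, adjusted p = 0.0741), and another detected probe had 0.10 ± 0.07. Slc25a1, which exports citrate for lipid synthesis, had a change of 0.17 (95% interval -0.02 to 0.37), was higher at the surface in 4 of 4 pairs, and had 0.07 without surface 4 and the block. The oxoglutarate and malate carrier Slc25a11 had a change of 0.04 (-0.14 to 0.23), and Slc25a21, which carries longer oxodicarboxylates, was not detected on any array.

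The 3 cofactor carriers tested did not pass either. Slc25a32, linked to folate and flavin transport, had a change of -0.19 (95% interval -0.39 to 0.01), the peroxisomal cofactor carrier Slc25a17 of -0.16 (-0.35 to 0.04) and the S-adenosylmethionine carrier Slc25a26 of -0.03 (-0.24 to 0.19). Slc25a32 and Slc25a17 were lower at the surface in 4 of 4 pairs. Slc25a16 and Slc25a42, tied to coenzyme A, and Slc25a51, which carries NAD, were not detected on any array.

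The uncoupling protein relatives Slc25a14, Slc25a27 and Slc25a30 had changes of 0.21, -0.05 and -0.43 with no call. That of Slc25a14 was 0.14 without replicate 4 and 0.04 without surface 4 and the block. Slc25a30 had log2 signals of 5.70, 5.69, 5.58 and 4.68 in surface samples 1 to 4, against 5.89, 5.80, 5.94 and 5.74 in crypt base samples 1 to 4. The groups did not overlap, but surface 4 lay well under background and the other surface samples just above it. Its change was -0.43 ± 0.17 (limma, adjusted p = 0.119), and it was -0.22 without replicate 4. The members with other or unassigned substrates, Slc25a45, Slc25a35 and Slc25a47, had changes of 0.10, -0.11 and -0.18 with no call, and that of Slc25a47 was -0.08 without replicate 1.

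Surface and crypt base did not overlap in 7 of the 27 members, 4 of them higher and 3 lower at the surface, against 19.3% of all genes tested (9.72% higher and 9.59% lower). All 4 pairs moved the same way in 16 of the 27, against 43.7% of all genes, and 8 of these 16 had passed. The changes of the 19 members with no call ran from -0.43 to 0.31, and an adjusted p above 0.05 does not show equal levels.

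The 17 members under the detection filter had mean log2 signals from 4.83 to 5.45, all under background, and differences from -0.20 to 0.19 between the groups. Of these, 14 were detected on no array, and Slc25a29, Slc25a38 and Slc25a46 were detected on 2, 2 and 1. Slc25a25, at 4 arrays, was the nearest above the filter. Not named so far are Slc25a34, Slc25a43, Slc25a48 and Slc25a53, which were detected on no array. Nothing can be said of changes in these genes from such signals.

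Genes that work beside the carriers were read from the same fit. Their lists were made with earlier results of these data known. Of all genes tested, 12.1% were called higher and 10.1% lower, and the counts of each list stand beside these shares. Of 5 tested genes of calcium uptake and exchange, 3 rose and 0 fell, with a median change of 0.39. Mcu, the pore of the calcium uniporter, rose by 0.77 ± 0.11 (SE, n = 4 pairs; 0.13 for its other detected probe), its regulator Micu2 by 0.49 ± 0.09 and Letm1, an inner membrane protein of cation exchange, by 0.33 ± 0.08. The uniporter subunit Smdt1 had a change of 0.39 ± 0.11 (limma, adjusted p = 0.0569). Without the block Mcu and Micu2 passed and Letm1 did not (adjusted p = 0.122).

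Of the outer membrane channels, through which carrier substrates reach the inner membrane, Vdac2 rose by 0.74 ± 0.08 and Vdac3 by 0.59 ± 0.07, and Vdac1 had a change of -0.16 ± 0.09 (limma, adjusted p = 0.263). Vdac2 and Vdac3 passed without the block too. Mpc1 of the pyruvate carrier was not detected on any array. Mtch2, an outer membrane protein of the carrier fold, rose by 0.34 ± 0.08 (0.10 for its other detected probe) with the block and did not pass without it (adjusted p = 0.179), and Mtch1 had a change of -0.26 ± 0.08 (adjusted p = 0.0602). Ucp1 and Ucp3 were not detected on any array.

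Of 10 tested genes for proteins that bring carriers into the inner membrane, 0 rose and 3 fell, with a median change of -0.31. The share called was 30%, against 22.2% of all genes tested. The small translocase Timm9, a chaperone of carriers between the membranes, fell with a change of -0.90 ± 0.15. Timm8a1, of the same chaperone family, had -0.45 ± 0.09, with no call without the block (adjusted p = 0.145). Tomm70a, the receptor for carrier precursors, had -0.43 ± 0.09, and 0.02 for its other detected probe. Of the sideroflexins, another family of mitochondrial carriers, 1 of 5 passed. It was Sfxn1, the serine carrier, with a change of -0.65 ± 0.13 and -0.64 for its other detected probe.

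Enzymes that share substrates with the amino acid carriers were lower or had no call. Of 3 tested genes of ornithine and citrulline metabolism 0 rose and 2 fell. Cps1, which makes carbamoyl phosphate for citrulline synthesis, had a change of -1.57 ± 0.15 and Ass1, which uses citrulline, had -0.82 ± 0.11. The ornithine carrier Slc25a15 had -0.33, and 0.05 for its other detected probe. Otc and Oat were not detected on any array. Of 3 genes of glutamine and proline metabolism 0 rose and 2 fell, beside a change of 0.33 for the glutamate carrier Slc25a22. Glud1, glutamate dehydrogenase, had -0.48 ± 0.09 and Prodh, proline dehydrogenase, had -0.47 ± 0.11. Prodh met the detection filter with no array to spare, at 4 arrays, and which arrays these were was not determined. Its mean log2 signal was 5.33 at the surface, under the background of 5.52, and 5.8 at the crypt base. Got2, the matrix aspartate transaminase, fell with a change of -0.58 ± 0.10 and was the 1 called of 4 shuttle enzymes.

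In the list of citrate export and lipid synthesis 1 of 4 rose and 1 fell. Cs, citrate synthase, rose by 0.83 ± 0.15, and Acly, which splits exported citrate, fell with a change of -0.69 ± 0.10 (limma without the block, adjusted p = 0.0535). Of 8 genes of the carnitine shuttle and fatty acid oxidation 1 rose and 0 fell, Cpt1b, which loads fatty acids onto carnitine in muscle, by 0.59 ± 0.13 (limma without the block, adjusted p = 0.0747). Of 4 genes of the mitochondrial folate cycle and of 5 genes of heme and iron-sulfur synthesis 0 passed. In limma, Mthfd2 and Mthfd1l of the folate cycle had changes of -0.56 and -0.58 (adjusted p = 0.0549 for both).

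**Figure D4:**
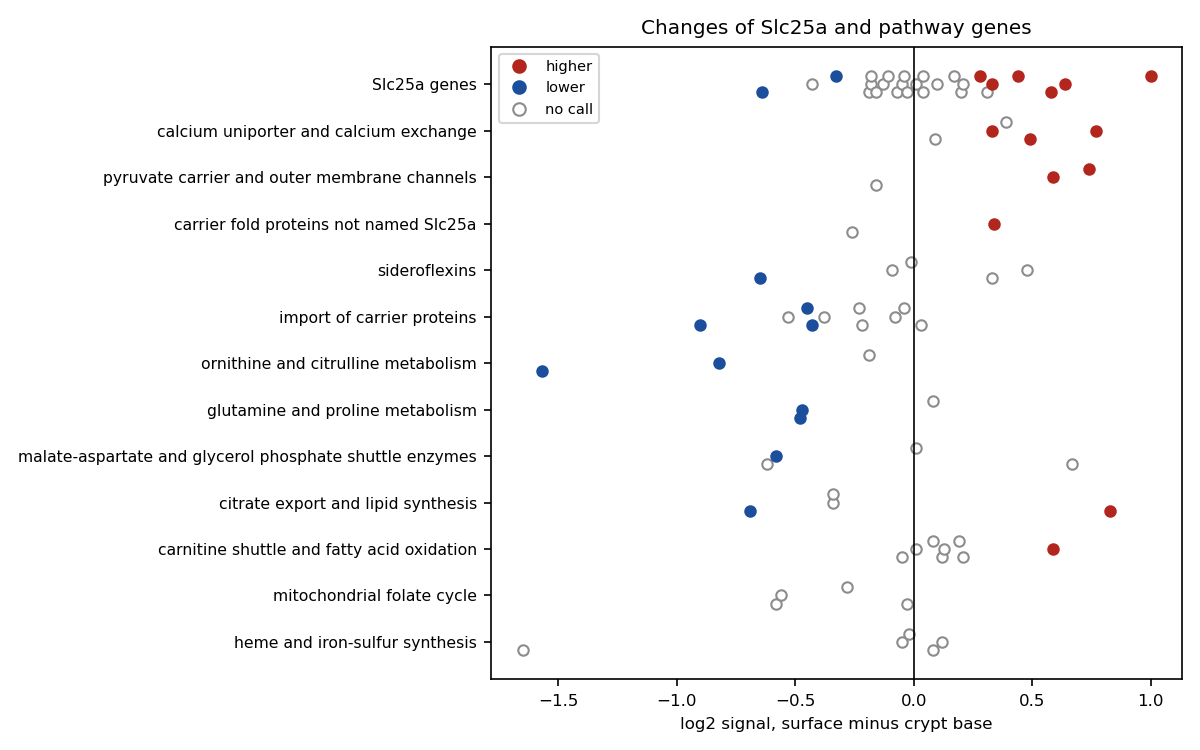
Change of each tested gene, in log2 signal at the surface minus log2 signal at the crypt base, for the Slc25a genes and 12 lists of genes that work beside them. Each point is a gene, filled where the adjusted p was under 0.05, and points are spread vertically for sight only. Filled points of calcium uptake and of the outer membrane channels lie right of 0, and those of carrier import, ornithine and glutamine metabolism lie left of 0.

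Of the respiratory chain, complex I and ATP synthase were read. Of 31 complex I genes tested 2 rose and 1 fell (9.68% called, against 22.2% of all genes), with a median change of -0.08. The risen ones were Ndufa6, with 0.66 ± 0.11, and Ndufb4, with 0.37 ± 0.10, and neither passed without the block (limma, adjusted p = 0.0627 and 0.171). The fallen one was Ndufa4, listed here with complex I, with -0.66 ± 0.08. Of 15 ATP synthase genes 0 rose and 1 fell (6.67% called), and the median change was 0.06. The fallen one was Atp5g2, detected on 6 arrays, with -0.58 ± 0.10. Atp5a1 had 0.10 ± 0.10 with no call, and -0.96 for its other detected probe. Those of Atp5k, Atp5l and Atp5pb ran from -0.07 to 0.21. Of 66 genes of mitochondrial ribosomal proteins 0 rose and 19 fell (28.8% called), with a median change of -0.28. Mrpl38 had -0.77 ± 0.11 (-0.32 for its other detected probe) and Mrps28 had -0.76 ± 0.12. Among the fallen, Mrpl1 and Mrpl3 had 0.04 to 0.07 and 0.0 to 0.08 for their other detected probes. Mrps12 had -0.52, Mrps33 -0.11 and Mrps10 -0.07 for theirs. Some of the 19 did not pass without the block, Mrpl1 and Mrpl3 among them (limma, adjusted p = 0.155 and 0.249). Of 144 other genes with a solute carrier symbol 24 rose and 12 fell, which is 25%, beside 22.2% of all genes. These were taken by symbol, and Slc4a1ap, Slc7a6os, Slc9a3r1 and Slc9a3r2, none of which passed, are named after a carrier and are not carriers themselves. No test of the difference between these lists and the Slc25 family was made.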

How the data were processed

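The authors deposited a table of log2 signals for 46632 probes on 8 arrays, with GenomeStudio named in the submitters' processing notes and no version. How they were normalized is not given in the sources. After sorting, the arrays differed by at most 0.01 at 99.0% of ranks, and the values were used as deposited. Per the labels' protocols, RNA from captured cells was amplified in successive rounds and labelled with biotin. A further deposited table gives a linear signal and a detection p-value per probe and array, per the file headers. None of its 8 signal columns carries a name that fits a label, so none stood for a sample, and after a log2 each equalled 1 column of the main table within 1e-06. Its detection p-values, of 8 more such columns, served as the number of arrays with a p under 0.05, and 32.3% to 35.2% of probes passed that limit per array. Background is the log2 level of 5.52 (a linear signal of 45.8) that as many probe and array pairs exceeded as were detected. Precision is limited by having 8 arrays.

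Of the probes 29976 had 1 symbol in the platform's annotation, 10 had several and 16646 had none. Of the 29976, 29921 matched a gene ID of RefSeq's GRCm38.p6 table, used for names. All 44 members have such a match. The change between surface and crypt base was fitted in limma 3.58.1 (lmFit, eBayes, two-sided; R 4.3.3) with a fixed term for replicate number, on the probe of each gene with the highest mean, detected on at least 4 arrays. The code was tested on simulated data. As a check of the pairing, deviations from the group mean correlated across genes at 0.45, 0.39, -0.04 and 0.48 between the samples numbered 1 to 4, and at -0.49 to 0.31 between samples of unlike number. The design text says that each mouse gave both kinds of sample, and that a number stands for a mouse is an assumption. The members, lists and tests were chosen with earlier results of these data known. Every member is accounted for. From each list of the pathway, up to 4 genes with the largest changes past the threshold are named, and from the wider lists fewer or none. Others with no call are named for their role or were chosen after their values were seen. Some called ribosomal protein genes are named for their other probes. Alternatives changed the block (with statmod 1.5.0 for a random block), normalization, background floor, filter, probe rule, prior and samples.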

Additional observations from a re-analysis of the deposited data

Results flagged for a closer look

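In groups of 4 samples, 54 groups of tested Slc25a genes were searched for a sample whose gap to its neighbour exceeded Dixon's 95% critical value as a share of the group's range. That search marked 5 samples, and chance marks about 1 in 20 groups. Slc25a30 was at 4.68 in surface 4, against 5.58 to 5.70 in the other surface samples. Slc25a33 was at 6.04 in surface 4, against 5.58 to 5.65. Slc25a36 was at 6.00 in surface 1, against 5.49 to 5.56. Slc25a15 was at 5.51 in surface 1, against 5.84 to 5.87. Slc25a22 was at 5.89 in crypt base 3, against 6.26 to 6.32 in the other crypt base samples, and its surface sample of the same number was low too.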

How the results depend on the processing

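The count of 8 called Slc25a genes was 8 with a random block, array medians centred, cyclic loess or a floor at background. Centring medians could change little, since the deposited arrays already shared nearly the same distribution. It was 7 with genes detected on all arrays, with probes averaged or with a trended and robust prior, and 6 with no detection filter. Without the replicate block it was 3, with 1267 genes called over the array and 48 in the pathway lists and the wider lists (complex I, ATP synthase, mitochondrial ribosomal proteins and other solute carriers) together, against 2110 and 77 with the block. Leaving out replicates gave 0 to 7 called Slc25a genes, 0 to 2303 genes over the array and 0 to 95 in those lists. The counts of 0 came without replicate 1. Without replicate 3 the counts were 4, 1043 and 44, without replicate 4 they were 4, 799 and 37, and without surface 4 and the block they were 3, 931 and 40. The cause was not tested. Slc25a3 and Slc25a24 lost their call only without replicate 1, of 14 alternatives. Slc25a10 gained a call with a random block (adjusted p = 0.0491), where Slc25a22 lost its call (0.0528). Each of the 8 called genes kept its sign under every alternative with a value. All pairs of each gene moved the same way, so leaving out a replicate number could not turn its sign. A changed block, filter or prior on all samples leaves the estimate itself as it was. Of the members with no call, some with a change near 0 turned sign. With 1 replicate number left out in turn, changes ran from -0.02 to 0.09 for Slc25a12, -0.03 to 0.06 for Slc25a40, -0.08 to 0.05 for Slc25a26, -0.12 to 0.03 for Slc25a36 and -0.10 to 0.01 for Slc25a27. Without surface 4 and the block, changes were -0.02 for Slc25a11, -0.03 for Slc25a40, -0.09 for Slc25a26, 0.0048 for Slc25a36, -0.12 for Slc25a27 and 0.03 for Slc25a39, where numbers left out in turn gave 0.02 to 0.08 for Slc25a11 and -0.13 to -0.02 for Slc25a39. Signals near background limit what can be seen in these and in the 17 untested members.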
